A study of Mus musculus with 9 samples.

Results

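Matrix and adhesion genes of the mouse uterus were examined together with annotated features that lie across them on the other DNA strand, called opposite features here. Of the 55228 rows counted in each library, 9 were taken by name. These were the genes Fbn1, Plod2, Nid1 and Itga8, the features opposite them, Gm9913, Gm38391, Gm48682 and E030013I19Rik, and Gm36993, which lies opposite the collagen gene Col6a4. The row of Col6a4 itself was read beside them to complete its pair.

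RNA of uterus tissue was sequenced on day 7 from wild-type (WT) C57BL female mice aged 8 weeks, with 3 mice per group and 1 library per mouse. The sham-operated group had a sham operation. Mice of the injury group had mechanical damage to the uterus by 10 passes of a needle (27 gauge), followed by 50 μL of PBS. The CRC group had the same injury and then received CRCs, endometrial epithelial cells kept in culture by conditional reprogramming on irradiated mouse 3T3 feeder cells, in the same volume. Host and transplanted cells are both of the mouse, so that their RNA cannot be told apart in these counts.

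Fibrillin-1, made by Fbn1, assembles into microfibrils that carry elastic fibres and hold latent TGF-β in the matrix. Lysyl hydroxylase 2, made by Plod2, modifies lysines at the ends of collagen chains and so sets which crosslinks form, and nidogen-1, made by Nid1, bridges laminin and collagen IV in basement membranes. Integrin α8, made by Itga8, is a receptor through which mesenchymal and smooth muscle cells hold on to matrix proteins such as nephronectin, and collagen VI forms beaded filaments close to basement membranes.

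Features held 317754 to 327883 counts per library in the sham-operated group, 280886 to 290684 in the injury group and 288619 to 290833 in the CRC group. This was between 0.776% and 0.898% of all records in each library. CPM, the count relative to the library size after TMM scaling, came to 3.05 to 3.70 for each count. Where a row had 0 counts, its true level could reach 3 counts, which is 9.14 to 11.1 CPM in these libraries, with counting error alone considered. The strand setting used for counting is not stated, so that each count is given for the row to which the authors assigned it. Whether the counting exchanged the strands, so that reads of a gene were placed on its opposite row, was not tested, and each value below holds for the row and not for the RNA of a strand. Between 87.3% and 91.6% of the records lay in no feature. Rows of genes that most cells use strongly were near empty too. Actb had 6 counts over the 9 libraries and was at 0 in 6 of them, Gapdh had 3 to 14 counts per library and Eef1a1 had 2 to 12. Sham replicate 2 stood apart, at a mean distance over log2 CPM of 55.8 from its own group and 64.9 from the other groups. Sham replicate 1 lay nearer to the other groups, at 48.4, than to its own, at 51.5. Within the injury group these mean distances were 38.6 to 40.6, and within the CRC group 35.3 to 35.6.

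The gene rows were close to empty, as were those of Actb, Gapdh and Eef1a1, and the opposite rows held most counts of each pair. Over the 9 libraries Fbn1 had 40 counts and Gm9913 had 553, so that 93.3% of the pair lay on the opposite row. Plod2 had 1 count and Gm38391 had 137, or 99.3%. Nid1 had 4 and Gm48682 had 65, or 94.2%. Itga8 had 8 and E030013I19Rik had 103, or 92.8%. Col6a4 had 40 and Gm36993 had 1292, or 97.0%. Of all features matched to the annotation, 16.6% have an exon across an exon on the other strand, and these held 79.8% of the matched counts. Both rows of a pair are among these features. A test was possible for 4 of the 9 members, Gm9913, Gm38391, E030013I19Rik and Gm36993, which passed edgeR's filter on low counts. No row of a named matrix gene passed it, and neither did Gm48682.

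The opposite features differ in how much of their sequence lies across exons of the gene. All positions are on GRCm38 in the GENCODE M21 annotation. Gm9913 (ENSMUSG00000053615.1) is a single exon of 2793 bases on the plus strand, chr2:125505089-125507881, inside the span of Fbn1 (ENSMUSG00000027204.13, minus strand, chr2:125300594-125507993). Of these bases 2442, or 87.4%, lie across exon sequence of Fbn1. In the other pairs the exons shared far less. Gm38391 (ENSMUSG00000103622.1, minus strand, chr9:92538801-92542869) has 346 of its 4069 bases, 8.50%, across an exon of Plod2 (ENSMUSG00000032374.14, plus strand, chr9:92542223-92608428), and 84.1% of it lies before that gene begins. E030013I19Rik (ENSMUSG00000086843.3, plus strand, chr2:12300946-12312315) shares 372 of 3769 exonic bases, 9.87%, with Itga8 (ENSMUSG00000026768.10, minus strand, chr2:12106632-12301922), and 74.1% of its exons lie outside the span of Itga8. Gm48682 (ENSMUSG00000113380.1, minus strand, chr13:13474343-13482405) lies within Nid1 (ENSMUSG00000005397.8, plus strand, chr13:13437551-13512269) and shares 143 of 1209 bases, 11.8%, with an internal exon. Gm36993 (ENSMUSG00000103434.1, plus strand, chr9:106095474-106098453) shares 127 of 2980 bases, 4.26%, with the first exon of Col6a4 (ENSMUSG00000032572.9, minus strand, chr9:105989454-106096783). Gm38391, E030013I19Rik and Gm36993 cross the 5′ start of their gene, while Gm9913 ends 112 bases inside that of Fbn1. GENCODE classes Gm9913 as protein coding, Gm48682 and E030013I19Rik as antisense, and Gm38391 and Gm36993 as TEC, a class for loci that still await experimental checking. Except for Gm9913, most bases of each opposite feature thus lie outside exons of the matrix gene, and the counts do not show from which bases the reads came.

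**Figure D1:**
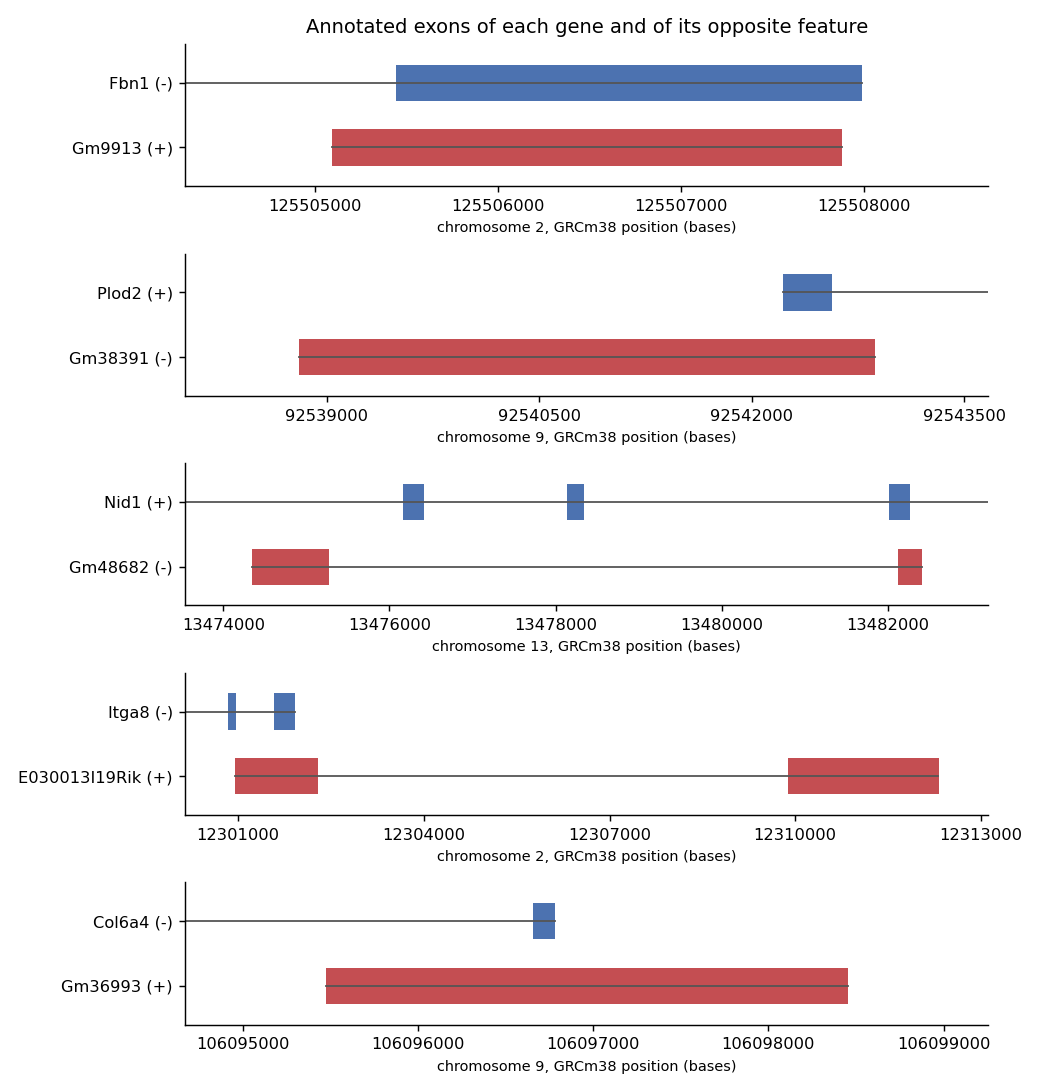
Exons of each gene (blue) and of its opposite feature (red) around the opposite feature, by GRCm38 position in bases, with thin lines for the annotated span and the strand beside each name. Gm9913 overlaps exon sequence of Fbn1 over 87.4% of its length and Gm36993 overlaps that of Col6a4 over 4.26%.

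The coding sequence that both strands share is printed below. For a read pair that lies wholly within these bases, strand alone can tell the gene from its opposite feature. Each stretch is given 5′ to 3′ on the strand of the matrix gene, as read from GRCm38, and capitals mark the start codon where the stretch begins with it. The reverse complement of each stretch was found in the annotated transcript of the opposite feature. The stretches lie at chr2:125505440-125505603 in Fbn1 (164 bases), chr9:92542460-92542568 in Plod2 (109 bases), chr13:13482121-13482263 in Nid1 (143 bases) and chr2:12301577-12301782 in Itga8 (206 bases). They are rich in G and C, at 65.9% in Fbn1, 78.0% in Plod2, 61.5% in Nid1 and 63.1% in Itga8. A further 26 coding bases of Itga8 lie across E030013I19Rik, and no coding base of Col6a4 lies across Gm36993.
Fbn1: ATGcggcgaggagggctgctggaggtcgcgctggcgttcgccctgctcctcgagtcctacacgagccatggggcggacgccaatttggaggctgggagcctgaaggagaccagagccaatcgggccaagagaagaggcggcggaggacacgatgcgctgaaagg
Plod2: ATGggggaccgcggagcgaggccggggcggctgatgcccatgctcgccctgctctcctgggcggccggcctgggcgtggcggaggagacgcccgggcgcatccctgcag
Nid1: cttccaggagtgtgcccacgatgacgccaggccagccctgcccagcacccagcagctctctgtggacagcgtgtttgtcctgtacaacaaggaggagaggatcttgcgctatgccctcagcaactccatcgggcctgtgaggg
Itga8: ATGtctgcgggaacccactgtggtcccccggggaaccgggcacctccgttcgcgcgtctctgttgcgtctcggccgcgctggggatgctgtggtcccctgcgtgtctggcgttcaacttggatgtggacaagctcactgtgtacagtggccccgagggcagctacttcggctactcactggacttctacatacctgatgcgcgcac

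Gm9913, opposite the microfibril gene Fbn1, was lower in the CRC group than in both other groups. It had 74, 73 and 74 counts in the sham-operated group, 72, 64 and 76 in the injury group, and 41, 45 and 34 in the CRC group. All 3 CRC libraries lay below every other library, while the sham-operated and injury groups overlapped. The mean level was 258 ± 16.1 CPM (SD, n = 3) in the sham-operated group, 247 ± 20.9 in the injury group and 122 ± 17.4 in the CRC group. Tests were made with edgeR's quasi-likelihood model over all 3722 features that passed the filter, with Benjamini-Hochberg adjustment. The log2 fold change of Gm9913 was -1.08 (SE 0.24, adjusted p = 0.00172) between CRC and sham and -1.01 (SE 0.24, adjusted p = 0.00438) between CRC and injury. It was -0.06 (SE 0.23, adjusted p = 0.950) between injury and sham. Of all tested features, 10.0% fell at least as far between CRC and sham and 7.82% between CRC and injury. In whole tissue, fewer cells that make an RNA and less of it per cell cannot be told apart.

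Fbn1 itself had 10, 4 and 7 counts in the sham-operated group, 2, 7 and 5 in the injury group, and 3, 0 and 2 in the CRC group. Every sham library was above every CRC library, and the injury libraries overlapped both groups. Fbn1 was too low for the test. Its share of the pair was small in each group, with Gm9913 holding 91.3% in the sham-operated group, 93.8% in the injury group and 96.0% in the CRC group (95% Wilson intervals 87.1% to 94.3%, 89.9% to 96.3% and 91.0% to 98.3%). These intervals cover counting error alone. They overlap, as they do for the pairs of Plod2, Nid1 and Itga8.

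Gm36993, opposite the first exon of the collagen VI gene Col6a4, held the most counts of the 9 rows and was also lower in the CRC group. It had 160, 157 and 153 counts in the sham-operated group, 178, 177 and 197 in the injury group, and 92, 78 and 100 in the CRC group. The 3 groups did not overlap, with the injury libraries highest and the CRC libraries lowest. The mean was 549 ± 31.1 CPM (SD, n = 3) in the sham-operated group, 644 ± 41.2 in the injury group and 275 ± 33.0 in the CRC group. The log2 fold change was -1.00 (SE 0.18, adjusted p = 0.000155) between CRC and sham and -1.23 (SE 0.18, adjusted p = 1.46e-05) between CRC and injury. Between injury and sham it was 0.23 (SE 0.17, adjusted p = 0.626), which did not pass the test although the groups were apart. Of all tested features, 11.5% fell at least as far between CRC and sham and 5.13% between CRC and injury. Col6a4 had 3, 15 and 6 counts in the sham-operated group, 7, 4 and 3 in the injury group, and 0, 0 and 2 in the CRC group. Its CRC libraries were below all others, at counts too low for the test. Gm36993 held 95.1% of the pair in the sham-operated group, 97.5% in the injury group and 99.3% in the CRC group (95% Wilson intervals 92.9% to 96.7%, 95.9% to 98.5% and 97.4% to 99.8%). The intervals of the sham-operated and CRC groups do not overlap, but they too cover counting error alone, and single libraries did overlap, at 91.3% to 98.2% and 98.0% to 100%.

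Col6a4 has a second opposite feature, Gm47575 (ENSMUSG00000111796.1, plus strand, chr9:106013530-106014653), far from Gm36993 along the gene, and 162 of its 736 exonic bases lie across coding sequence of Col6a4. It had 59, 44 and 52 counts in the sham-operated group, 46, 64 and 70 in the injury group, and 25, 36 and 16 in the CRC group. All 3 CRC libraries were below all others. The log2 fold change was -1.19 (SE 0.31, adjusted p = 0.00547) between CRC and sham and -1.42 (SE 0.30, adjusted p = 0.00150) between CRC and injury. Without CRC replicate 3 it was -0.95 against sham with an adjusted p of 0.0598, in a range of 0.00193 to 0.0598 over 15 alternatives. Both features opposite Col6a4 thus fell in the CRC group, at positions that share no exon with each other.

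Gm38391, which reaches across the 5′ end of the lysyl hydroxylase gene Plod2, varied widely within the sham-operated and CRC groups. It had 25, 7 and 25 counts in the sham-operated group, 14, 16 and 16 in the injury group, and 20, 7 and 7 in the CRC group. The groups overlapped, and sham replicate 2 had the same count as the lowest CRC libraries. The mean was 65.5 ± 34.5 CPM (SD, n = 3) in the sham-operated group, 53.7 ± 4.40 in the injury group and 34.6 ± 22.8 in the CRC group. The log2 fold change was -0.92 (SE 0.50, adjusted p = 0.210) between CRC and sham, -0.63 (SE 0.51, adjusted p = 0.494) between CRC and injury, and -0.29 (SE 0.49, adjusted p = 0.866) between injury and sham. Without sham replicate 2 the value between CRC and sham was -1.32 with an adjusted p of 0.0399, in a range of 0.0399 to 0.504 over 14 alternatives. Without CRC replicate 1 the value was -1.59 against sham (adjusted p = 0.0722) and -1.31 against injury (adjusted p = 0.213). Between injury and sham it ranged from -0.67 to -0.02 over 13 alternatives, without passing. Plod2 itself had 1 count, in sham replicate 3, and 0 in the other libraries.

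Gm48682, inside the basement membrane gene Nid1, was below the filter in the fit of all 9 libraries. It had 5, 0 and 8 counts in the sham-operated group, 9, 8 and 4 in the injury group, and 12, 8 and 11 in the CRC group, and the groups overlapped in CPM. It could be tested in 7 of the fits that left out 1 library and with the counts of Nid1 added to it, where its log2 fold changes were 0.07 to 1.82 over the 3 comparisons, with adjusted p-values of 0.221 to 0.980. Nid1 had 2 counts in sham replicate 3, 2 in CRC replicate 2 and 0 in the other libraries. At these counts a difference in Nid1 or Plod2 was not detectable.

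E030013I19Rik, across the 5′ end of the integrin gene Itga8, had higher values in the CRC group, without passing the test. It had 10, 8 and 8 counts in the sham-operated group, 15, 4 and 1 in the injury group, and 16, 21 and 20 in the CRC group. The CRC libraries were all above the sham libraries, while the injury libraries were spread so widely that they overlapped both. The mean was 30.2 ± 1.98 CPM (SD, n = 3) in the sham-operated group, 23.2 ± 25.5 in the injury group and 58.1 ± 8.29 in the CRC group. The log2 fold change was 0.93 (SE 0.57, adjusted p = 0.267) between CRC and sham, 1.30 (SE 0.59, adjusted p = 0.164) between CRC and injury, and -0.37 (SE 0.64, adjusted p = 0.871) between injury and sham. Without injury replicate 1 the value between CRC and injury was 2.65 with an adjusted p of 0.0201, in a range of 0.0201 to 0.509 over 14 alternatives. Outside the CRC group only injury replicate 1 had more than 10 counts. E030013I19Rik thus passed the filter through the CRC group, where it was higher, and its values add no support for a rise there. Itga8 itself had 0, 0 and 2 counts in the sham-operated group, 0 in each injury library, and 1, 0 and 5 in the CRC group.

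**Figure D2:**
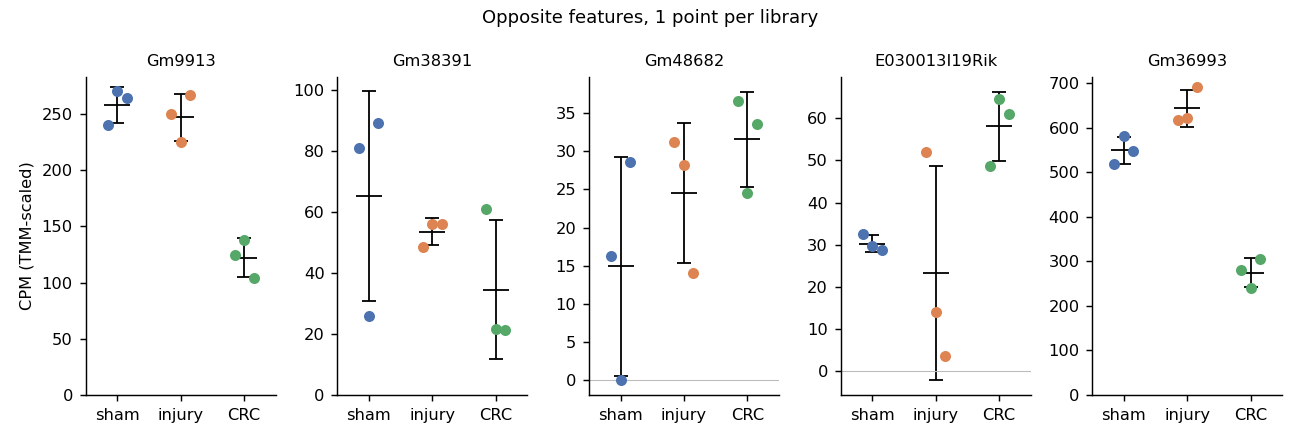
CPM on TMM-scaled libraries for the 5 opposite features, with 1 point per library by group and bars for the mean and SD (n = 3). The CRC libraries lie below all others for Gm9913 and Gm36993, and above the sham libraries for E030013I19Rik, which passed the filter through the CRC group.

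Read together, none of the 4 tested members passed the test between injury and sham with edgeR, against 0.430% of all tested features (16 of 3722). At an unadjusted p under 0.05 the count was also 0 of the 4, against 468 of 3722 tested features (12.6%), and DESeq2 gave 0 of the 2 to which it assigned an adjusted p, Gm9913 and Gm36993, against 21 of all features. Between CRC and sham 2 of the 4 passed, both lower, against 20.0% of all tested features, and between CRC and injury the same features, Gm9913 and Gm36993, passed, against 12.9%. These shares depend on single libraries. With 1 library left out, 505 to 894 features passed between CRC and sham, where 4025 to 4141 were tested. Between CRC and injury 330 to 395 passed, where 4025 to 4139 were tested. The CRC libraries are shared by these comparisons. Groups that did not overlap in CPM were found for 1 of the 4 between injury and sham, against 15.7% of all tested features, for 3 of the 4 between CRC and sham, against 35.5%, and for 2 of the 4 between CRC and injury, against 33.5%. E030013I19Rik is among the 3 between CRC and sham, and it passed the filter through the CRC group, where it was higher. Among tested features with an exon opposite another exon, 23.2% passed between CRC and sham, compared with 15.5% of those without one. A difference between the CRC and sham-operated groups was thus common across the features of these libraries.

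**Figure D3:**
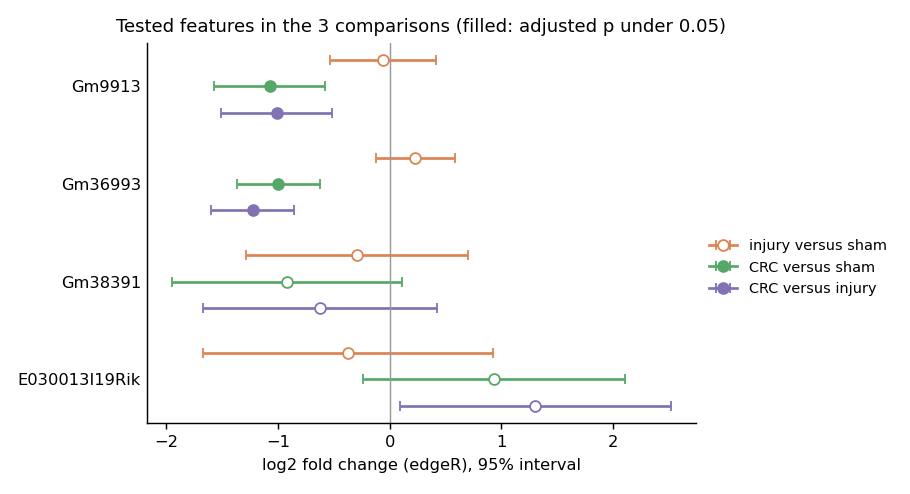
Log2 fold change of the 4 tested members in the 3 comparisons, with 95% intervals from edgeR and filled points for an adjusted p under 0.05. Gm9913 and Gm36993 lie at -1.08 and -1.00 between CRC and sham, and the intervals of Gm38391 and E030013I19Rik are wide.

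Levels were compared between rows per kilobase of exon. Of the 9 members Gm36993 was highest in the sham-operated group, at 184 ± 10.4 CPM per kilobase (SD, n = 3), followed by Gm9913 at 92.5 ± 5.75, while Gm47575, which is not a member, was at 245 ± 20.6. Gm38391 at 16.1 ± 8.48, Gm48682 at 12.4 ± 11.9 and E030013I19Rik at 8.02 ± 0.527 came next and did not differ beyond their spread. In the injury group the level was 216 ± 13.8 for Gm36993, 88.5 ± 7.50 for Gm9913, 20.2 ± 7.58 for Gm48682, 13.2 ± 1.08 for Gm38391 and 6.16 ± 6.77 for E030013I19Rik. In the CRC group it was 92.3 ± 11.1 for Gm36993, 43.8 ± 6.24 for Gm9913, 26.1 ± 5.15 for Gm48682, 15.4 ± 2.20 for E030013I19Rik and 8.50 ± 5.60 for Gm38391, where the last pair overlapped. The gene rows had lower means in each group than the opposite rows, although in single libraries Fbn1 and Col6a4 reached the level of the low opposite features. Their sham means were 3.39 ± 2.79 CPM per kilobase for Col6a4, 1.99 ± 0.730 for Fbn1, 0.343 ± 0.595 for Nid1, 0.324 ± 0.560 for Itga8 and 0.221 ± 0.383 for Plod2.

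Few of the other genes of the same matrix systems could be tested on their own rows. Of 19 genes for microfibrils and elastic fibres, 1 own row could be tested, and of their 6 opposite rows 3 could be tested, of which Gm9913 alone fell in the CRC group. Among all 2190 tested features with an opposite exon, 350 were lower between CRC and sham and 216 between CRC and injury. Of 24 genes for collagen modification and crosslinking, 3 own rows and 7 opposite rows could be tested. No own row passed in any comparison, although without sham replicate 2 Loxl3 was at -0.83 between CRC and sham with an adjusted p of 0.00485 (range 0.00485 to 0.504 over 15 alternatives). With library sizes taken from all records, which moved the median of all features to 0.32, Loxl4 passed as higher between CRC and sham, at 1.46 with an adjusted p of 0.0379 (range 0.0379 to 0.406 over 14 alternatives), and so did Gm4524, opposite P3h2, at 0.89 with 0.0138 (range 0.0138 to 0.444 over 15 alternatives). Loxl4 had at most 10 counts in each sham and injury library and passed the filter through the CRC group, where it was higher. Its pass thus adds no support for a rise there. Between CRC and sham 2 of the 7 opposite rows fell, where 23.2% of all tested features with an opposite exon were called in either direction (508 of 2190) and 350 of these 2190 were lower. They were Snx22, opposite the prolyl isomerase gene Ppib, at -0.74 (SE 0.22, adjusted p = 0.0218), and Htra2, opposite the lysyl oxidase gene Loxl3, at -0.66 (SE 0.19, adjusted p = 0.0126). Both calls were lost with those library sizes, at -0.46 and -0.37 with adjusted p-values of 0.187 and 0.173. That of Snx22 was also lost with upper-quartile factors, at -0.71 with 0.0588, and with at least 10 counts in every library, at -0.67 with 0.0854. Leaving out single libraries also ended both. Without CRC replicate 1 Snx22 was at -0.60 with an adjusted p of 0.0962 (range 4.35e-07 to 0.187 over 15 alternatives). Without sham replicate 3 Htra2 was at -0.58 with an adjusted p of 0.0623, and without CRC replicate 3 at -0.57 with 0.0922 (range 0.000977 to 0.173 over 15 alternatives). Between CRC and injury Snx22 alone of the 7 fell, at -1.07 (SE 0.22, adjusted p = 0.00276), against 330 of the 2190 called and 216 lower, and Htra2 did not pass, but without injury replicate 2 it was at -0.60 with an adjusted p of 0.0347 (range 0.0347 to 0.732 over 15 alternatives). Gm27177, opposite Loxl2, passed only without sham replicate 1, at -1.76 between CRC and sham (adjusted p = 0.0440), without injury replicate 3, at -2.09 between CRC and injury (adjusted p = 0.0246), with the compared groups alone or with the replicate number as a block, in ranges of 0.0440 to 0.240 over 14 alternatives and 0.0246 to 0.896 over 13. It had at most 8 counts in each CRC library and passed the filter through the sham-operated group, where it was higher. These passes thus add no support for a fall.

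Of 30 basement membrane genes 3 own rows and 3 opposite rows could be tested, and of 26 integrin genes 2 own rows and 3 opposite rows. With edgeR none of these passed in any of the 3 comparisons, and DESeq2 gave 0 among the rows to which it assigned an adjusted p, but E030013I19Rik passed between CRC and injury without injury replicate 1, at the 2.65 given for it. E030013I19Rik passed the filter through the CRC group, so that this pass adds no support for a rise. At an unadjusted p under 0.05 there was 1 of 6 basement membrane rows and 1 of 5 integrin rows, both between CRC and injury, where 24.7% of all tested features had such a p. These were C430014B12Rik, opposite Col4a3, and E030013I19Rik. C430014B12Rik had at most 7 counts in each CRC library and passed the filter through libraries of the other groups, where it was higher. Collagen VI was the exception. The own rows of Col6a1, Col6a2 and Col6a3, whose chains assemble together into collagen VI, could be tested. They were called lower in the CRC group in both comparisons, in which 447 and 291 of 3722 tested features were lower. Col6a1 and Col6a3 had fewer than 10 counts in each CRC library and passed the filter through the other groups, where they were higher. Their calls thus add no support to that of Col6a2. Col6a2 had 94, 241 and 163 counts in the sham-operated group, 85, 105 and 99 in the injury group, and 26, 24 and 43 in the CRC group. Its log2 fold change was -2.64 (SE 0.31, adjusted p = 4.54e-07) between CRC and sham and -1.83 (SE 0.31, adjusted p = 0.000149) between CRC and injury. Col6a1 had 13, 53 and 35 counts in the sham-operated group, 20, 21 and 21 in the injury group, and 4, 3 and 6 in the CRC group. Col6a3 had 17, 49 and 30, then 11, 26 and 11, and then 2, 1 and 3 in these groups. Against sham and then injury, Col6a1 was at -3.14 (SE 0.52, adjusted p = 4.26e-05) and -2.41 (SE 0.54, adjusted p = 0.00232). Col6a3 was at -4.13 (SE 0.61, adjusted p = 9.41e-06) and -3.11 (SE 0.65, adjusted p = 0.00116). With so few CRC counts the size of these 2 falls is uncertain. Against sham, the CRC group had a median log2 fold change of -1.05 over the 3 opposite rows of collagen VI and 0.03 over all tested features. The former is the value of Gm38314, opposite Col6a6, which did not pass between CRC and sham (SE 0.50, adjusted p = 0.140). Between CRC and injury Gm38314 was at -1.13 (SE 0.50, adjusted p = 0.148). Gm36993 and Gm47575 passed in both comparisons. The median of the 3 own rows, -3.14, is the value of Col6a1 and rests on its low CRC counts. Between injury and sham no row of the 5 matrix lists passed with edgeR or with DESeq2, and 2 of 31 tested rows, Col6a2 and Col6a3, had an unadjusted p under 0.05, against 12.6% of all tested features. Without sham replicate 1 Col6a2 passed there at -1.12 with an adjusted p of 0.00162 (range 0.00162 to 0.581 over 15 alternatives), and Snx22 at 0.68 with 0.00670 (range 0.00670 to 0.920).

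Markers of uterine cell types were read in the same libraries. Some rows of smooth muscle markers, or rows opposite them, were lower in the CRC group than in the sham-operated group. Some of these had lower values in the injury group as well. The 5 rows opposite the 7 smooth muscle markers summed to 22033, 18205 and 18738 counts in the sham-operated group, 15805, 15167 and 15508 in the injury group, and 9683, 9138 and 9108 in the CRC group. Gm48529, opposite Tagln, made up 130075 of the 133385 counts over all libraries. The 7 own rows summed to 123, 151 and 137 counts in the sham-operated group, 84, 94 and 90 in the injury group, and 79, 76 and 102 in the CRC group, with Myh11 the most abundant, and none of them was at 0 throughout. Of 6 tested rows, 3 were own rows of these markers and 3 were opposite rows. Between CRC and sham 4 of the 6 fell, 1 own row and the 3 opposite rows, where 447 of 3722 tested features were lower. They were Gm48529 at -1.28 (SE 0.10, adjusted p = 1.76e-10), Myh11 at -1.25 (SE 0.30, adjusted p = 0.00299), Pcsk7, also opposite Tagln, at -1.32 (SE 0.40, adjusted p = 0.0179) and Gm11946, opposite Smtn, at -0.88 (SE 0.16, adjusted p = 0.000207). The own row of Tagln was at -1.13 (SE 0.42, adjusted p = 0.0528), and it passed without sham replicate 1, at -1.29 with 0.0365 (range 0.0365 to 0.247 over 14 alternatives). Between CRC and injury 2 of the 6 fell, against 291 of 3722, Gm48529 at -0.94 (SE 0.10, adjusted p = 3.69e-08) and Pcsk7 at -1.50 (SE 0.40, adjusted p = 0.00933), both opposite the same gene. The latter call was lost without CRC replicate 2, at -1.27 with 0.0706 (range 0.00257 to 0.0706 over 14 alternatives). Gm11946 was at -0.43 (SE 0.16, adjusted p = 0.0859) and passed with the compared groups alone, at 0.0241, and without injury replicate 2, at -0.62 with 0.0130 (range 0.0130 to 0.402 over 15 alternatives). Myh11 was at -0.34 (SE 0.31, adjusted p = 0.546). Between injury and sham Myh11 was at -0.90 (SE 0.30, adjusted p = 0.176), Gm48529 at -0.34 (SE 0.10, adjusted p = 0.148) and Gm11946 at -0.44 (SE 0.16, adjusted p = 0.225). These 3 of the 6 tested rows had an unadjusted p under 0.05 in that comparison, against 12.6% of all tested features. Pcsk7 and Lmod1 had higher values, at 0.18 and 0.07. There Myh11 passed without sham replicate 1, at -1.02 with an adjusted p of 0.0486 (range 0.0486 to 0.485 over 15 alternatives), and Gm48529 passed with DESeq2, at -0.35 with 0.0293 (range 0.0293 to 0.723). Lmod1 was at 0.13 between CRC and sham (SE 0.44, adjusted p = 0.872). The call of Pcsk7 between CRC and sham was lost without sham replicate 3, CRC replicate 2 or CRC replicate 3, at adjusted p-values of 0.0546, 0.110 and 0.0598 and log2 fold changes of -1.26, -1.07 and -1.32. It was also lost with library sizes from all records, at -1.02 with 0.0622, and without a filter, at -1.29 with 0.0857 (range 0.0110 to 0.110 over 14 alternatives). The part of smooth muscle in the fall of Gm9913 and Gm36993 was not tested.

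Of the immune markers only Csf1r could be tested, with 66, 63 and 79 counts in the sham-operated group, 63, 47 and 62 in the injury group, and 45, 36 and 35 in the CRC group. It fell between CRC and sham, at -1.04 (SE 0.26, adjusted p = 0.00431). Between CRC and injury it was at -0.76 (SE 0.26, adjusted p = 0.0517), and it passed there with the compared groups alone, at 0.0234, and without injury replicate 2, at -0.90 with 0.0425 (range 0.0234 to 0.176 over 15 alternatives). The 5 immune markers summed to 498 counts, 496 of them on Csf1r, and Ptprc, Adgre1 and Cd3e were at 0. The row of Csf1r alone does not measure the amount of immune cells. Markers of other cell types were near the floor on their own rows. The 7 epithelial markers had 11, 8 and 3 counts in the sham-operated group, 2, 5 and 4 in the injury group, and 6, 5 and 3 in the CRC group, with Muc1 the most abundant and Cdh1 and Foxa2 at 0. The rows of Actb and Gapdh were as low, so that these counts do not measure the amount of epithelium, the cell type transplanted here. The 5 endothelial markers had 3 to 19 counts per library, with Emcn the most abundant and no row tested. The 5 adipocyte markers had 4, 1 and 5 counts in the sham-operated group, 9, 27 and 9 in the injury group, and 0, 4 and 0 in the CRC group, with Lep the most abundant and Adipoq, Fabp4 and Pparg at 0. The injury libraries were above all others, at counts too low for the filter. Without a filter 1 adipocyte row passed as lower in CRC than in injury, where 398 of 16905 features passed in either direction. Lep held 56 of the 59 adipocyte counts, so that these rows do not measure the amount of adipocytes. Of the 5 stromal markers Hoxa11, a transcription factor gene of uterine stroma, was the most abundant with 147 of 221 counts, and Hoxa11os opposite it had 6450. The stromal markers summed to 22, 14 and 47 counts in the sham-operated group, 19, 33 and 14 in the injury group, and 28, 16 and 28 in the CRC group, where the groups overlapped. Hoxa11os had 663, 913 and 691 counts in the sham-operated group, 525, 528 and 596 in the injury group, and 905, 732 and 897 in the CRC group. The injury libraries were below all others, and the sham-operated and CRC groups overlapped. Its log2 fold change was -0.47 (SE 0.15, adjusted p = 0.174) between injury and sham, -0.05 (SE 0.15, adjusted p = 0.869) between CRC and sham and 0.42 (SE 0.15, adjusted p = 0.0628) between CRC and injury. Between injury and sham it passed without sham replicate 1, at -0.60 with an adjusted p of 0.00957 (range 0.00957 to 0.723 over 15 alternatives). Between CRC and injury it passed as higher in 3 of 15 alternatives (range 0.00506 to 0.347).

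The features most like each tested member were sought among the 492 tested features that averaged 100 counts or more per library, by Pearson's r of log2 CPM over the 9 libraries. All libraries entered each coefficient, so that a difference between groups counts toward it. For Gm9913 these were St3gal6 (r = 0.984), Gm13032 (r = 0.979) and Gm43557 (r = 0.975). For Gm36993 they were Cdc23 (r = 0.980), Gm15655 (r = 0.968) and Prss23os (r = 0.960). St3gal6, Gm13032, Cdc23, Gm15655 and Prss23os themselves lie opposite an exon of another gene, Dcbld2, Padi1, Kif20a, Maf and Prss23 in this order, as do 2190 of the 3722 tested features. St3gal6 averaged 1224 ± 39.4 CPM (SD, n = 3) in the sham-operated group, 1152 ± 32.7 in the injury group and 588 ± 60.5 in the CRC group, a course close to that of Gm9913. Gm15655 averaged 2277 ± 242 CPM, 2285 ± 206 and 1210 ± 133 in the same groups. Between CRC and sham these 2 were at log2 fold changes of -1.06 and -0.91, and the other 4 fell further, Gm13032 to -4.70, Gm43557 to -2.61, Cdc23 to -2.27 and Prss23os to -1.81, so that likeness in course was not likeness in size. For Gm38391 the closest were Abi3 (r = 0.919), A230087F16Rik (r = 0.832) and Rfc5 (r = 0.820), and for E030013I19Rik C030034L19Rik (r = 0.746), Cdan1 (r = 0.744) and 4921516A02Rik (r = 0.739), a weaker likeness at low counts.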

How the data were processed

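Libraries of total RNA from mouse uterus had been depleted of ribosomal RNA and sequenced as paired reads of 150 bases. According to the submitters' processing notes the reads were aligned with HISAT2 2.1.0 and transcripts assembled with StringTie 2.1.1. The authors deposited raw counts, without normalization, for each row of each library, with 5 closing rows of uncounted reads. Positions, exons and sequences were read from GENCODE M21 on GRCm38, which matched 53569 of the 55228 rows by name. The study names version 23, so that exon limits may differ. Groups came from the sample labels.

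Rows that passed filterByExpr (3722) were scaled by TMM and fitted over all 9 libraries with edgeR 4.0.16 (limma 3.58.1, R 4.3.3), using its robust quasi-likelihood test, and Benjamini-Hochberg adjusted p-values were held against 0.05. The fit was tested on simulated data. Python 3.11.15 served for intervals (scipy 1.17.1), sums (numpy 2.4.6) and plots (matplotlib 3.10.9). Log2 CPM used a prior count of 2. Libraries of the same group differed by a chi-square per degree of freedom of 2.26 to 14.6, above counting noise.

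Named were all members and Col6a4, up to 5 rows per matrix list and comparison that passed the test with the largest change, and the 3 features most like each tested member. Rows of markers, Actb, Gapdh and Eef1a1 and list rows that passed under an alternative alone or at an unadjusted p alone were named after their values were seen. The members and lists were chosen with earlier results of these data known. Alternatives were DESeq2's size factors, upper-quartile factors, library sizes from all records, the Wald test of DESeq2 1.42.0, no filter, at least 10 counts in every library, the compared groups alone, a replicate block, the gene row and opposite row added, and each library left out in turn.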

Additional observations from a re-analysis of the deposited data

How the results depend on the processing

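Gm9913 and Gm36993 stayed lower in the CRC group, past the threshold, in both comparisons under all 15 alternatives. The log2 fold change of Gm9913 ranged from -1.16 to -0.78 against sham and from -1.11 to -0.82 against injury, and that of Gm36993 from -1.08 to -0.70 and from -1.33 to -1.03. With library sizes from all records the median feature moved to 0.32 between CRC and sham and to 0.21 between CRC and injury. With the replicate block 0 of 4 tested members passed between injury and sham, 2 between CRC and sham and 2 between CRC and injury, against 5, 682 and 425 of 3722 tested features. Within-group deviations of libraries with the same number correlated at -0.10 to 0.08, and with different numbers at -0.07 to 0.11.

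Between injury and sham Gm9913, at -0.06, turned to 0.0365 with library sizes from all records and to 0.0104 without a filter, and ranged from -0.12 to 0.0137 with each library left out in turn. E030013I19Rik ranged from -1.74 to 0.13 with each library left out. Neither passed in any of these, and the cause was not tested. The count of all features that passed between injury and sham was 16, and it ranged from 3 to 154 with 1 library left out, the highest without sham replicate 1, and from 5 to 24 under the other alternatives. Gm38391 and E030013I19Rik did not have 10 counts in every library and have no value under that filter, and DESeq2 gave them no adjusted p between injury and sham, where E030013I19Rik was also below the filter with the compared groups alone. Without a filter Fbn1 was at -2.15 between CRC and sham, with an adjusted p of 0.385.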
